A study of Mus musculus with 6 samples.

Results

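The 10 genes described here encode chemokine ligands, the small secreted proteins that direct the movement of leukocytes: Ccl1, Ccl3, Ccl4, Ccl5, Ccl17, Ccl22, Cxcl2, Cxcl3, Cxcl10 and Xcl1. They were listed by name, as chemokines made by group 2 innate lymphoid cells (ILC2), and all 10 were matched by symbol among the 16231 genes tested, of 37991 genes in the count files. Messenger RNA was sequenced in 6 libraries of mouse ILC2, which are tissue lymphocytes without antigen receptors that make type 2 cytokines. The cells were sorted as Lin-Thy1+ST2+, ST2 being the IL-33 receptor chain encoded by Il1rl1. There were 3 groups of 2 libraries: ILC2 taken directly from the thymus, ILC2 taken directly from mesenteric lymph nodes (fresh MLN), and MLN ILC2 kept for 1 week in culture (cultured MLN) with 10 ng/ml each of IL-33, IL-25 and IL-7. Every group came from mice homozygous for an Id1 transgene under the lck proximal promoter, a promoter active in the T lineage. The transgene came from FVB/N mice, and 10 or more generations of backcrossing put it on C57BL/J. T cell development is blocked in these mice. All levels therefore belong to transgenic cells, and no library from mice without the transgene enters these comparisons. The sources used here give no age, sex or pooling of animals. Nor do they say if paired libraries came from different animals or cultures, so each p-value reflects a spread between libraries that may be technical.

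Chemokines bind G protein-coupled receptors on leukocytes and set up gradients along which those cells move. Their names follow the spacing of conserved cysteines: CC ligands, CXC ligands, and the C ligand XCL1. Many are induced by NF-kB, by interferons or by lymphocyte activation, and one receptor often reads several ligands. ILC2 are known as responders to chemokines through Ccr4 and Ccr8, and as sources of chemokines that act on other leukocytes.

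Library totals ran from 35280692 to 40578264 counts, and values below are CPM, the library-scaled read count, on totals scaled by TMM, a scaling that sets most genes level between libraries. At this depth, 3 counts in 1 library equal 0.0739 to 0.0905 CPM. Il1rl1 ranged over 1444 to 1457 CPM for thymus, 1818 to 1885 for fresh MLN and 2289 to 2342 for cultured libraries, and none of the 12 listed ILC2 genes was at 0 in any group. Id1, which the transgene encodes, had mean levels of 424 CPM (thymus), 451 CPM (fresh MLN) and 1.33 CPM (culture), so the cultured cells differed from both fresh groups in this transcript as well as in culture. A gene was called where its adjusted p from edgeR's quasi-likelihood test, over all genes tested, was under 0.05. Of the 12 ILC2 genes, 7 were called higher and 5 lower in culture than in fresh MLN. Thymus was higher than fresh MLN in 3 and lower in 6. The sort marker Thy1 had mean levels of 730.8, 335.3 and 113.1 CPM in thymus, fresh MLN and culture, and Areg had 0.510, 0.993 and 462.9. The 3 comparisons share groups with each other and are not independent. Bulk RNA cannot tell fewer cells of a type from less RNA per cell.

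Between thymus and fresh MLN, 6 of the 10 ligands were called, 1 higher in thymus (Ccl1) and 5 lower (Ccl4, Ccl5, Ccl22, Cxcl10 and Xcl1). Of all genes tested, 47.3% were called in that comparison, 25.3% higher and 22.0% lower in thymus. Between cultured and fresh MLN, 8 were called, with Ccl3, Ccl4, Cxcl2 and Cxcl3 higher in culture and Ccl5, Ccl22, Cxcl10 and Xcl1 lower. There, 77.6% of all genes were called, 39.4% higher and 38.1% lower in culture, so the members' count is near the background. Between cultured MLN and thymus all 10 were called, 5 higher and 5 lower in culture, against 72.7% of all genes, 34.8% higher and 37.8% lower. The median log2 difference of the members was -2.02 for thymus against fresh MLN, where the median of all genes was 0.00. It was -0.18 for cultured against fresh MLN and -0.43 for cultured MLN against thymus, or 0.39 with groups at 0 counts set at their bound, beside -0.01 and -0.06 for all genes. For thymus against fresh MLN the median is the midpoint of Xcl1 (-1.95) and Cxcl2 (-2.09), and Cxcl2 was not called, on 1 and 5 counts. For cultured against fresh MLN it is the midpoint of Ccl1 (-1.10) and Ccl17 (0.73), neither called. These medians therefore do not show that the members moved together. All 10 passed the filter on low counts. However, 4 of them (Ccl3, Ccl4, Ccl22 and Cxcl2) reached 10 counts in both libraries of 1 group only, so they passed through the group in which they were high and had to differ.

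**Figure D1:**
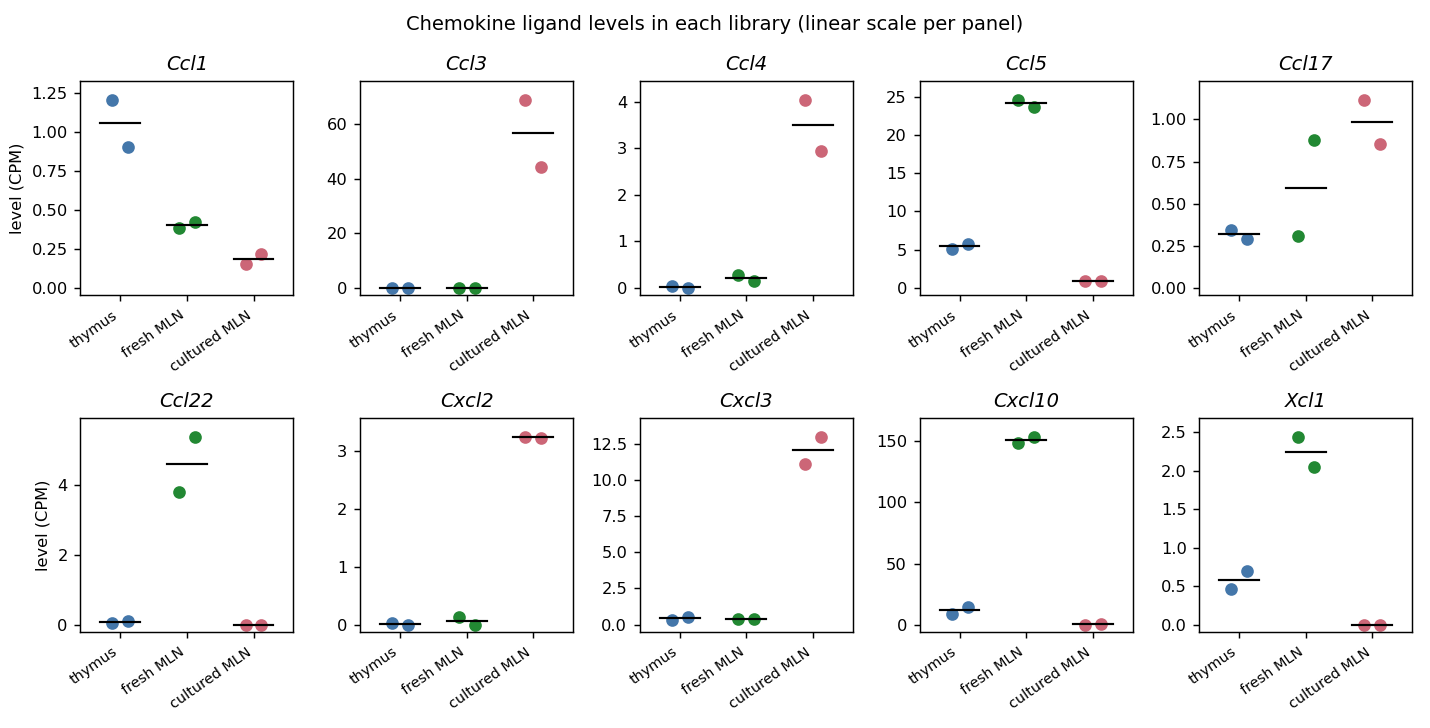
Level of each of the 10 chemokine ligands in CPM, with 1 point per library and a line at each group's mean. Cxcl10, Ccl5, Ccl22 and Xcl1 have their highest points in the fresh MLN libraries, Ccl3, Ccl4, Cxcl2 and Cxcl3 in the cultured libraries, and Ccl1 in the thymus libraries.

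Promoter sequences are shown for the 4 members whose window holds a match to the motif of NF-kB, a factor of inflammatory signalling. RefSeq windows on GRCm38.p6 were found for 8 of the 10 members, all but Ccl4 and Ccl5. The 250 bases before the start site were searched on both strands for an NF-kB decamer, for an interferon-stimulated response element core (ISRE, TTTCNNTTT), for a gamma-activated site (GAS, TTCNNNGAA) and for an AP-1 site (TGANTCA). The NF-kB decamer was found in 4 of the 8 windows (Ccl1, Cxcl2, Cxcl3 and Cxcl10), against 7.25% of all 32851 promoter windows. The ISRE core was found in 1 (Cxcl10), against 9.37% of all windows. A longer ISRE form with a closing C was searched first, and was also found in 1 member, against 2.98% of all windows. The GAS was found in 1 (Ccl17), against 7.02%, and the AP-1 site in 1 (Cxcl10), against 6.75%. The windows of Ccl3, Ccl22 and Xcl1 held none of the 4 motifs. A match describes the letters and says nothing of whether a factor binds. In the 4 sequences, written 5′ to 3′ on the gene's strand with the start site just after the last base, capitals mark the NF-kB and ISRE matches.
Cxcl10, chr5:92348890-92349139, minus strand: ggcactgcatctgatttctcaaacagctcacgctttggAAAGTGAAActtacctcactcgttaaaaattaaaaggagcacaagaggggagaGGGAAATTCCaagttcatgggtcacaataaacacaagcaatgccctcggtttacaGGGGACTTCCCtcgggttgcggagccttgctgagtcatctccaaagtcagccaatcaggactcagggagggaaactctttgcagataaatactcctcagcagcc
Cxcl2, chr5:90903649-90903898, plus strand: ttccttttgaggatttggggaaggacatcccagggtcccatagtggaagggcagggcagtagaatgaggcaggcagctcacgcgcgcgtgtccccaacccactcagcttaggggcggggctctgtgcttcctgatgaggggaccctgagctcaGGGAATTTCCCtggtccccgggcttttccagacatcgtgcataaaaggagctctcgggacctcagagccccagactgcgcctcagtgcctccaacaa
Cxcl3, chr5:90785851-90786100, plus strand: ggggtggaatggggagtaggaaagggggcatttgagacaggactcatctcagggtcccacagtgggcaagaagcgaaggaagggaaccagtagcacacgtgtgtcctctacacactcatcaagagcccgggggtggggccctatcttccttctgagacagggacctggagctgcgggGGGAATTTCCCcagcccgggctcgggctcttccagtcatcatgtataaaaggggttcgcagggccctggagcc
Ccl1, chr11:82179813-82180062, minus strand: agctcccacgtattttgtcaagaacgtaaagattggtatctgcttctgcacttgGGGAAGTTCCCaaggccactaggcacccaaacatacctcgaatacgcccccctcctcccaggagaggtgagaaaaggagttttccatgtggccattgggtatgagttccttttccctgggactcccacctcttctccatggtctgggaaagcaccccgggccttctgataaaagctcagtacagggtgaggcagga
In Cxcl10 the ISRE core lies 212 to 204 bases before the start, and the NF-kB matches lie at 159 to 150 and at 104 to 94. The NF-kB matches of Cxcl2 (97 to 87 bases before the start) and Cxcl3 (73 to 63) are the same 11 letters, and that of Ccl1 lies at 196 to 186. Cxcl2 and Cxcl3 had the most alike windows of the 28 pairs, with 54.7% of alignment columns identical, and the next pair, Ccl17 and Ccl22, had 49.3%. That value was close to the 49.0% of Cxcl3 and Cxcl10, and the lowest pair, Ccl3 and Xcl1, had 40.6%.

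Cxcl10, a ligand of Cxcr3 induced by interferons, was the most abundant member in fresh MLN on the scale of CPM per kilobase of transcript, at 109.6 and 113.7. Cxcl10 measured 8.48 and 14.7 CPM in the thymus libraries, 148.3 and 153.9 in the fresh MLN libraries, and 0.0604 and 0.193 in the cultured libraries. The 3 groups did not overlap. The log2 difference was -3.71 ± 0.17 (SE) for thymus against fresh MLN, a 13.0-fold lower level in thymus (edgeR adjusted p = 1.89e-09). In culture it was 1193-fold lower than in fresh MLN (log2 difference -10.15 ± 0.32, edgeR adjusted p = 5.67e-12). The cultured level rests on 2 and 7 counts: without cultured replicate 2 the difference was -11.20 from fresh MLN and -7.50 from thymus, in place of -6.44. The Cxcl10 exons overlap those of Art3 on the opposite strand over 133 of 2252 bases, and the sources used here do not give the strand setting of the counting. Art3 itself had mean levels of 0.372, 0.365 and 0.0138 CPM in thymus, fresh MLN and culture.

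Ccl5, a ligand of Ccr1 and Ccr3 made by activated lymphocytes, had the same order of groups. Its levels were 5.13 and 5.72 CPM for thymus, 24.6 and 23.7 for fresh MLN, and 0.966 and 0.910 for culture. No group overlapped another. Thymus was 4.45-fold below fresh MLN (log2 difference -2.16 ± 0.12, edgeR adjusted p = 1.12e-08). Cultured cells were 25.8-fold below fresh MLN (-4.68 ± 0.16, edgeR adjusted p = 1.02e-11) and 5.78-fold below thymus (-2.53 ± 0.17, edgeR adjusted p = 2.07e-08).

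Xcl1, the ligand of Xcr1 and a product of NK and T lymphocytes, had a mean of 4.29 CPM per kilobase in fresh MLN, where Ccl5 had 45.4. It measured 0.468 and 0.691 CPM in thymus and 2.44 and 2.05 in fresh MLN, and had 0 counts in both cultured libraries. Thymus lay 3.87-fold below fresh MLN (log2 difference -1.95 ± 0.33, edgeR adjusted p = 0.000457). Against a floor of 3 counts over the group, cultured cells were at least 52.0-fold below fresh MLN (edgeR adjusted p = 3.71e-07) and at least 13.3-fold below thymus (edgeR adjusted p = 4.8e-05). Floors and intervals here cover counting error only. Xcl1 exons overlap Gm20743 on the opposite strand over 98 of 523 bases.

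Ccl22 and Ccl17 are the ligands of Ccr4, the receptor of skin- and lung-homing type 2 lymphocytes, and lie in one cluster on chromosome 8 with Cx3cl1 between them. Ccl22 measured 0.0493 and 0.106 CPM in thymus and 3.80 and 5.39 in fresh MLN, and had 0 counts in both cultured libraries. It was 59.1-fold lower in thymus than in fresh MLN (log2 difference -5.84 ± 0.43, edgeR adjusted p = 3.76e-07), and the difference was -6.44 without thymus replicate 2. Cultured cells were at least 106-fold below fresh MLN (edgeR adjusted p = 4.18e-08). Against thymus, whose libraries held 6 counts in all, cultured cells were at least 1.78-fold lower (edgeR adjusted p = 0.0332). That call was lost without thymus replicate 2, with an edgeR adjusted p of 0.114, and without cultured replicate 1 or 2, at 0.0879 and 0.098.

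Ccl17 did not share the order of Ccl22. Its levels were 0.345 and 0.292 CPM for thymus, 0.308 and 0.876 for fresh MLN, and 1.12 and 0.855 for culture. The fresh MLN libraries overlapped both other groups, and the cultured libraries lay above both thymus libraries. The culture against thymus difference was 1.61 ± 0.49 on the log2 scale, 3.09-fold (edgeR adjusted p = 0.0094). It was not called without thymus replicate 2 (edgeR adjusted p = 0.0506) or without cultured replicate 1 (0.0694). Thymus and fresh MLN differed by -0.88 ± 0.51 (edgeR adjusted p = 0.183), and cultured and fresh MLN by 0.73 ± 0.45 (edgeR adjusted p = 0.148). Without fresh MLN replicate 1 thymus was called lower (-1.44, edgeR adjusted p = 0.0305), and without fresh MLN replicate 2 culture was called higher (1.65, edgeR adjusted p = 0.0147). Per kilobase, the ratio of Ccl22 to Ccl17 was 2.86 and 1.43 in fresh MLN, 0.0331 and 0.0843 in thymus, and 0 in culture.

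Ccl3 and Ccl4, the macrophage inflammatory proteins, lie next to each other on chromosome 11, and both were highest in culture. Ccl3 measured 0.0739 and 0.0532 CPM for thymus, 0.0514 and 0.159 for fresh MLN, and 68.8 and 44.3 for culture. The cultured libraries stood far above all 4 others, while thymus and fresh MLN overlapped. Culture was 537-fold above fresh MLN (log2 difference 9.03 ± 0.33, edgeR adjusted p = 2.75e-11) and 890-fold above thymus (9.71 ± 0.35, edgeR adjusted p = 3.51e-11). Fresh MLN held only 2 and 6 counts, and the first difference was 8.44 without fresh MLN replicate 1 and 10.00 without replicate 2. Thymus and fresh MLN differed by -0.68 ± 1.18 (edgeR adjusted p = 0.673).

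Ccl4 measured 0.0493 and 0 CPM for thymus, 0.283 and 0.159 for fresh MLN, and 4.04 and 2.95 for culture, and no group overlapped another. It was 15.8-fold higher in culture than in fresh MLN (log2 difference 3.96 ± 0.40, edgeR adjusted p = 9.23e-07). Against the 2 counts in thymus, the ratio of culture to thymus was 136, with an exact 95% interval of 37.2 to 1127 (edgeR adjusted p = 1.47e-07). The ratio of fresh MLN to thymus was 8.68, with an interval of 2.06 to 77.5 (edgeR adjusted p = 0.0171). That call was lost without thymus replicate 2 (edgeR adjusted p = 0.101) or fresh MLN replicate 1 (0.098), and the log2 difference of -2.96 was -6.05 without thymus replicate 1 and -2.09 without replicate 2. The difference between culture and thymus was 10.00 without thymus replicate 1 and 6.05 without replicate 2. Per kilobase, Ccl3 exceeded Ccl4 in culture by 14.7 and 12.9 times in the 2 libraries.

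Cxcl2 and Cxcl3, which attract neutrophils through Cxcr2, were likewise highest in culture. Cxcl3 measured 0.345 and 0.532 CPM for thymus, 0.385 and 0.398 for fresh MLN, and 11.1 and 13.0 for culture. The cultured libraries were above all others, and the fresh MLN values lay between those of the thymus libraries. Culture was 30.7-fold above fresh MLN (log2 difference 4.93 ± 0.24, edgeR adjusted p = 5.19e-10) and 27.4-fold above thymus (4.78 ± 0.24, edgeR adjusted p = 7.84e-10). The difference between thymus and fresh MLN was 0.15 ± 0.37 (edgeR adjusted p = 0.768).

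Cxcl2 measured 0.0246 and 0 CPM for thymus, 0.128 and 0 for fresh MLN, and 3.26 and 3.23 for culture. Thymus and fresh MLN overlapped, each with a library at 0, and both cultured libraries lay above them. Culture was 50.5-fold above fresh MLN (log2 difference 5.56 ± 0.55, edgeR adjusted p = 7.49e-07), a difference of 9.91 without fresh MLN replicate 1 and 4.61 without replicate 2. Against the 1 count in thymus the ratio was 253, with an exact 95% interval of 45.0 to 10050 (edgeR adjusted p = 4.37e-07), and the log2 difference was 9.90 without thymus replicate 1 and 6.85 without replicate 2. Thymus and fresh MLN were not called apart (edgeR adjusted p = 0.263). Per kilobase, Cxcl3 exceeded Cxcl2 in culture by 6.22 and 7.37 times. These ratios rest on the longest coding transcripts, of 1016 bases for Cxcl3 and 1859 for Cxcl2. All annotated exons span 3498 and 2068 bases, and with those lengths the ratios would be lower.

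Ccl1, the ligand of Ccr8, was the only member with its highest level in thymus. It measured 1.21 and 0.904 CPM for thymus, 0.385 and 0.425 for fresh MLN, and 0.151 and 0.221 for culture, and no group overlapped another. Thymus was 2.61-fold above fresh MLN (log2 difference 1.38 ± 0.38, edgeR adjusted p = 0.0094). The call was lost without thymus replicate 1 (edgeR adjusted p = 0.104) or fresh MLN replicate 1 (0.0566), and under DESeq2, another count test, the adjusted p was 0.0612. Culture was 5.69-fold below thymus (-2.48 ± 0.44, edgeR adjusted p = 0.000215). The difference between culture and fresh MLN, -1.10 ± 0.50, was not called (edgeR adjusted p = 0.0609).

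**Figure D2:**
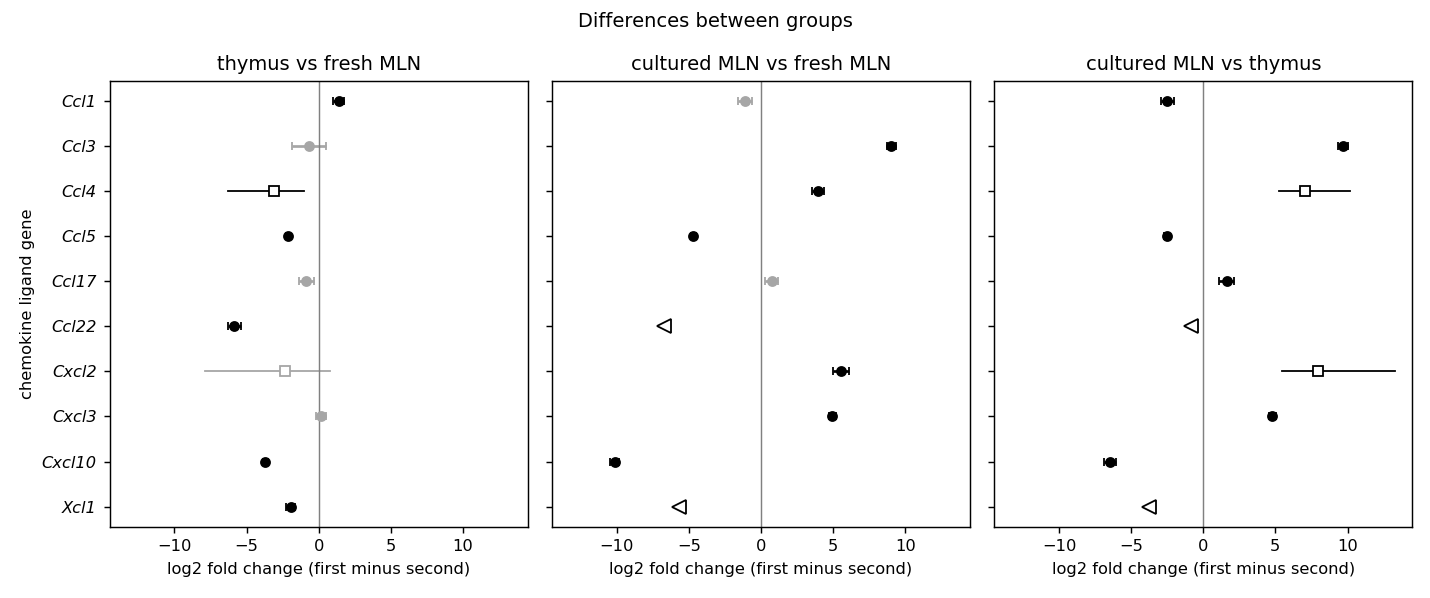
Log2 difference of each ligand in the 3 comparisons, first group minus second. Dots are edgeR values with SE, open squares are counting ratios with 95% intervals where the lower group held 1 to 3 counts, open triangles are lower bounds where a group held 0, and black marks called values. Ccl3 and Cxcl10 lie farthest from 0 among the dots for cultured against fresh MLN, at 9.03 and -10.15.

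Scaled per kilobase of transcript, the members' summed level was 20.0 and 25.6 CPM per kilobase in the thymus libraries, 164.4 and 167.8 in fresh MLN and 112.9 and 80.7 in culture. Cxcl10 made up 66.7% and 67.8% of that sum in fresh MLN and Ccl5 28.1% and 26.5%. In thymus Ccl5 made up 48.2% and 41.9% and Cxcl10 31.3% and 42.5%, so on this scale their order differed between the 2 thymus libraries. Without scaling by length, Cxcl10 exceeded Ccl5 in both, at 52.4% and 64% of the summed CPM against 31.7% and 24.8%. In culture Ccl3 made up 79.6% and 71.7%, Cxcl3 9.66% and 15.8%, and Cxcl10 0.0395% and 0.177%. Fresh MLN Cxcl10 stood above 97% of the genes tested per kilobase, and cultured Ccl3 above 92.9%. Fresh MLN Ccl5 stood above 89.3%.

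**Figure D3:**
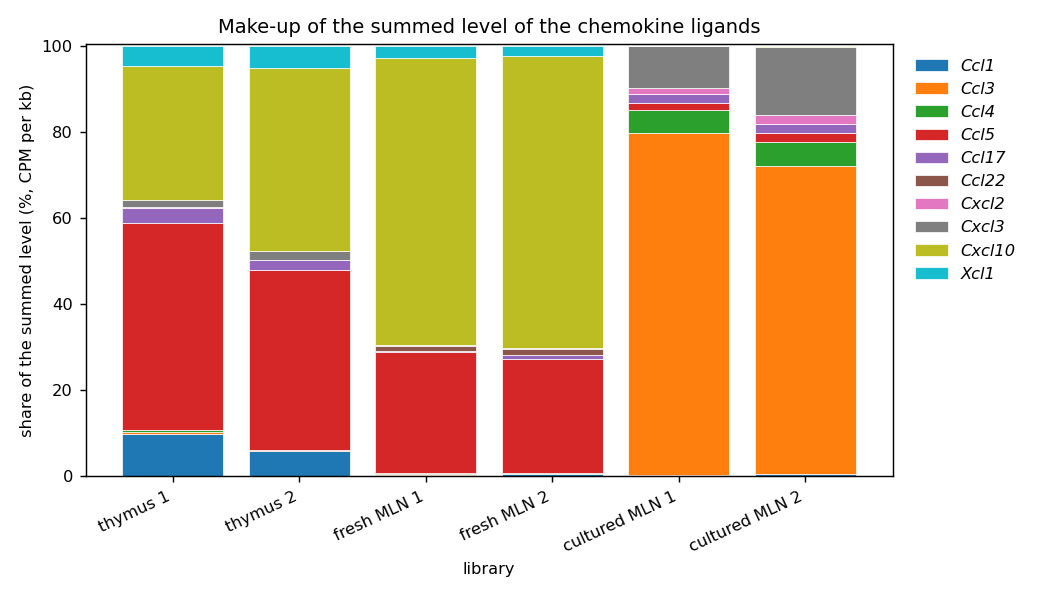
Share of each ligand in the summed CPM per kilobase of the 10 members, 1 bar per library. Cxcl10 takes 66.7% and 67.8% of the fresh MLN bars and Ccl3 takes 79.6% and 71.7% of the cultured bars.

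Of 28 other chemokine ligands, 27 had an identifier in the files and 8 were tested, the other 19 being below the filter. Thymus was lower than fresh MLN in 3 of the 8 (Cxcl9, Cxcl11 and Cxcl16), and 5 were not called. Culture was higher than fresh MLN in 3 (Ccl9, Ccl25 and Cxcl5) and lower in 4 (Ccl27a, Cxcl9, Cxcl11 and Cxcl16). Of all genes tested, 47.3% were called for thymus against fresh MLN and 77.6% for cultured against fresh MLN. Ccl9, Cxcl5, Cxcl9 and Cxcl11 reached 10 counts in both libraries of 1 group only. They too passed the filter through the group in which they were high and had to differ. Cxcl9, another interferon-induced ligand of Cxcr3 and a near neighbour of Cxcl10 on chromosome 5, measured 0.148 and 0.346 CPM for thymus, 1.90 and 2.92 for fresh MLN, and 0.0302 and 0 for culture. Cxcl9 was lower in thymus than in fresh MLN (log2 difference -3.29 ± 0.44, edgeR adjusted p = 4.56e-05), and its ratio of fresh MLN to culture was 167, with an exact 95% interval of 29.6 to 6624. Ccl25, the ligand of Ccr9, was higher in culture than in fresh MLN, at mean levels of 4.27 and 2.62 CPM (log2 difference 0.70 ± 0.19). Ccl27a, a ligand of Ccr10, was lower in culture (-1.44 ± 0.31).

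Of 7 listed receptors of these ligands, 6 were tested and Cxcr2 was below the filter. Culture was higher than fresh MLN in 3 (Ccr1, Ccr3 and Xcr1) and lower in 2 (Ccr4 and Cxcr3). Thymus was higher than fresh MLN in 2 (Ccr4 and Xcr1) and lower in 2 (Ccr8 and Cxcr3). Ccr1, a receptor of Ccl3 and Ccl5, measured 1.08 and 1.25 CPM for thymus, 0.977 and 0.584 for fresh MLN, and 384.8 and 374.7 for culture. Culture was higher by 8.92 ± 0.13 on the log2 scale than fresh MLN. The cultured libraries stood above all others for Ccr1, as they did for Ccl3. Ccr4, the receptor of Ccl17 and Ccl22, measured 169.8 and 148.9 CPM for thymus, 137.1 and 113.0 for fresh MLN, and 45.3 and 32.0 for culture. It fell by 1.70 on the log2 scale (SE 0.14) in culture against fresh MLN. Ccr8, the receptor of Ccl1, was lower in thymus (24.2 and 23.1 CPM) than in fresh MLN (40.5 and 39.1), with a log2 difference of -0.75 ± 0.10, opposite in direction to Ccl1. Cxcr3 had mean levels of 0.269 CPM in thymus and 1.11 in fresh MLN and 0 counts in culture, at least 25.7-fold below fresh MLN. Xcr1, the receptor of Xcl1, measured 38.8 and 33.4 CPM in culture, where Xcl1 had 0 counts, against 5.53 and 6.40 in fresh MLN (2.60 ± 0.15). Ccrl2, an atypical receptor, had mean levels of 4.37 CPM in thymus, 31.6 in fresh MLN and 1.93 in culture.

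**Figure D4:**
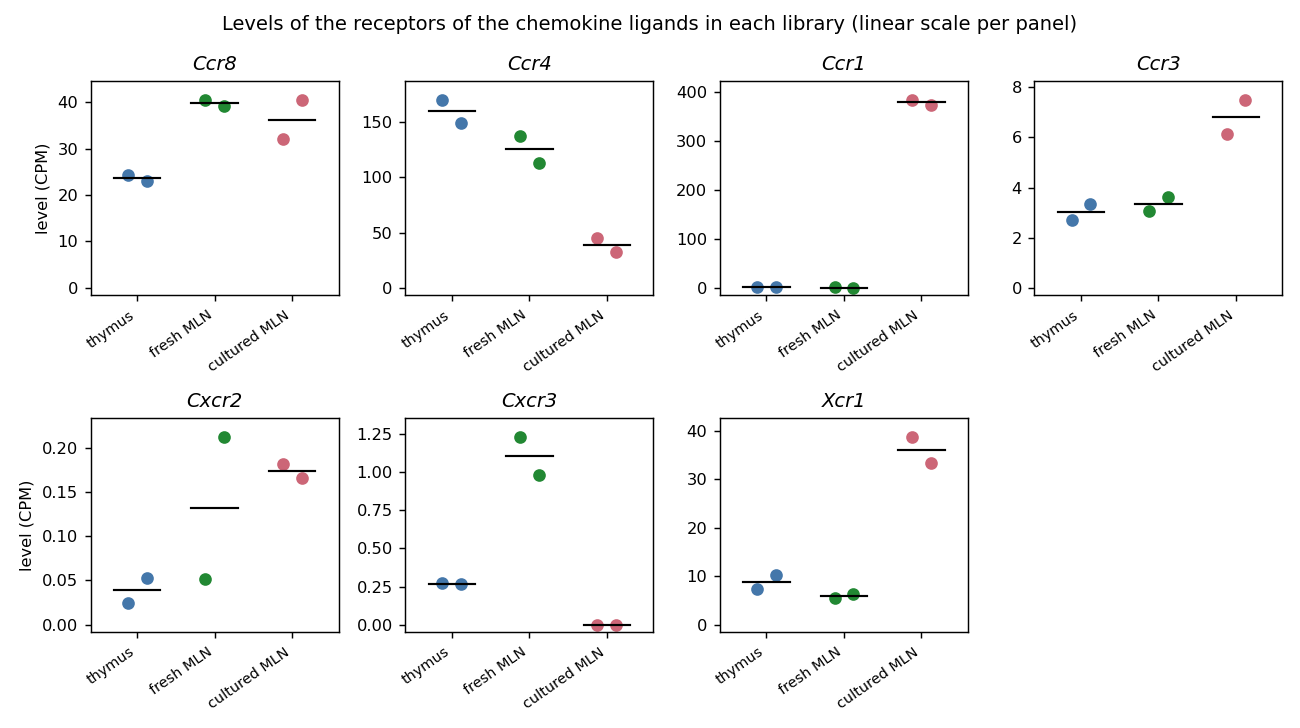
Level of 7 receptors of the ligands in CPM, with 1 point per library and a line at each group's mean. Ccr1 has cultured points of 384.8 and 374.7 CPM, far above the other libraries, and the Ccr4 points are lowest in culture.

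Genes known to respond to the signals that induce chemokines were described beside the members. Of 16 interferon response genes, all 16 were called lower in thymus than in fresh MLN, with a median log2 difference of -1.79, and culture was lower than fresh MLN in 15 and higher in 1 (Socs1), with a median of -4.33. Their summed level was 1480 to 1663 CPM in thymus, 5015 to 5051 in fresh MLN and 616.1 to 653.1 in culture, the order of groups of Cxcl10, Ccl5, Ccl22 and Xcl1. Against fresh MLN, Mx1, an interferon-induced antiviral GTPase, was 9.43-fold lower in thymus and Oasl2 was 859.5-fold lower in culture. This list also holds Cxcl9. Of 14 NF-kB response genes, 1 was higher (Tnf) and 11 lower in thymus than in fresh MLN. Culture was higher than fresh MLN in 3 (Bcl3, Traf1 and Nfkbib) and lower in 8. Bcl3, an NF-kB cofactor, was 7.73-fold higher in culture and Relb, an NF-kB subunit, 2.50-fold lower. Of 14 early activation genes, 9 were higher and 2 lower (Junb and Rcan1) in thymus than in fresh MLN. Culture was higher than fresh MLN in 7 and lower in 4 (Nr4a3, Fosb, Nfatc1 and Rcan1). Ier3, a stress-induced survival gene, was 185.3-fold higher in culture, and Fosl2, an AP-1 subunit, was 8.75-fold higher in thymus than in fresh MLN.

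**Figure D5:**
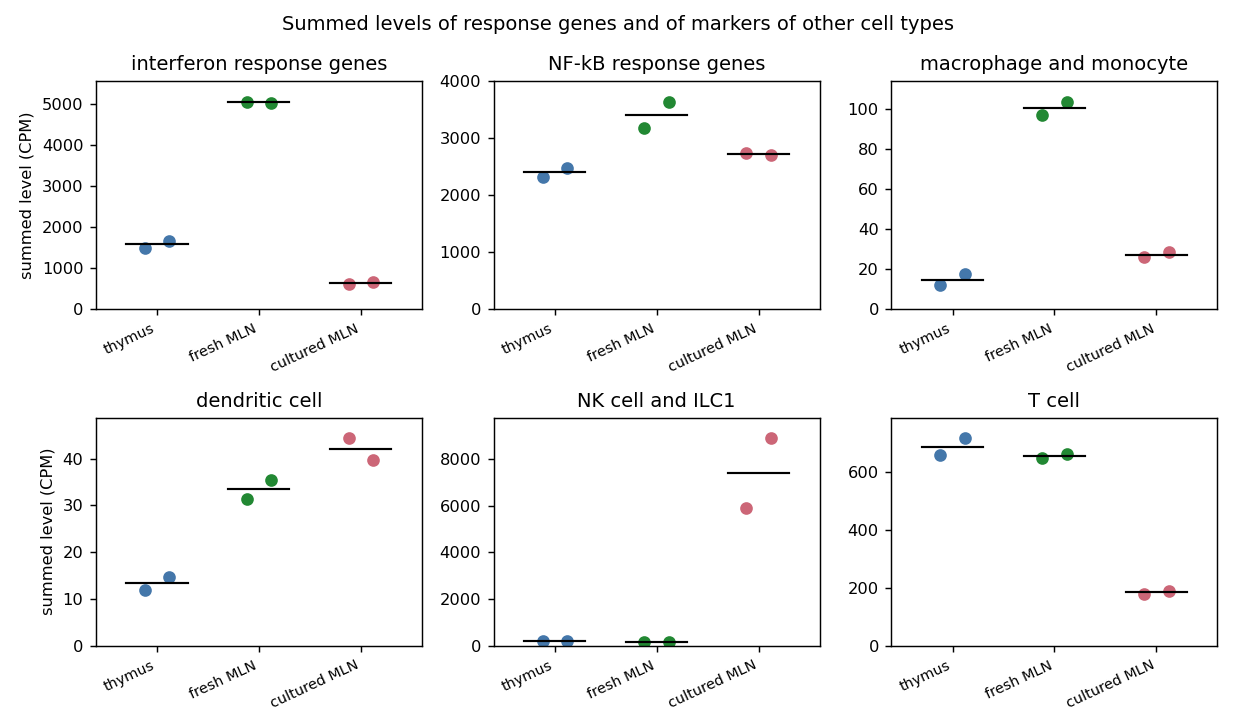
Summed CPM of the genes of 2 response lists (interferon and NF-kB) and 4 cell type marker lists, with 1 point per library and a line at each group's mean. The interferon response and macrophage sums are highest in fresh MLN, at 5015 to 5051 and 97.2 to 103.7 CPM, and the NK cell and ILC1 sum is highest in culture, at 5904 to 8882 CPM.

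Markers of other cells that a sort could carry also differed between the groups. The 14 macrophage and monocyte markers summed to 11.8 to 17.2 CPM in thymus, 97.2 to 103.7 in fresh MLN and 25.8 to 28.3 in culture. Of the 12 tested, 6 were lower in thymus and 8 lower in culture than in fresh MLN, and 3 were higher in culture (Adgre1, Cd68 and Itgam). Cybb, a phagocyte oxidase subunit, made up most of the fresh MLN sum, at 72.3 and 66.8 CPM. Ly6c2 and C1qc were at 0 in culture. Cd14, which was below the filter, was at 0 in thymus and had 1 count in fresh MLN and 25 in culture. The 10 dendritic cell markers summed to 11.9 to 14.7, 31.4 to 35.5 and 39.7 to 44.4 CPM, a list that holds Xcr1. Of the 6 tested, 4 were lower and 1 higher in thymus than in fresh MLN, and 5 were lower and 1 higher in culture. Fscn1, an actin bundler of mature dendritic cells, measured 14.4 and 17.4 CPM in fresh MLN and at most 1.68 elsewhere. Clec9a, Cd209a and Batf3 were at 0 in culture, Siglech in thymus, and Ccl19 in all 3 groups. Of these only Batf3 passed the filter, so the others were not tested. The macrophage sum, most of it Cybb, and Fscn1 were thus highest in fresh MLN, as were Ccl22, Ccl5, Xcl1 and Cxcl10, while Adgre1, Cd68 and Itgam were highest in culture. The dendritic cell sum was highest in culture, where Xcr1 had a mean of 36.1 CPM. Batf3 was highest in thymus, at a mean of 0.467 CPM against 0.196 in fresh MLN. The part of these cells in the ligand results was not tested.

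The 12 NK cell and ILC1 markers summed to 209.1 to 211.0 CPM in thymus, 155.5 to 161.8 in fresh MLN and 5904 to 8882 in culture, where Gzmb alone had a mean of 7189. Of them 8 were lower in thymus and 8 lower in culture than in fresh MLN, with Gzmb and Nkg7 higher in thymus and Gzmb, Gzma and Prf1 higher in culture. Ncr1, the NKp46 receptor, measured 6.63 and 7.25 CPM in fresh MLN and at most 0.957 in the other groups, and Klrb1c and Klre1 were at 0 in culture. The 12 T cell markers summed to 658.4 to 715.4, 646.6 to 661.7 and 179.3 to 189.5 CPM with none at 0. Of them 4 were higher and 3 lower in thymus, and 1 higher and 9 lower in culture, than in fresh MLN. Trbc2, Lat and Cd3e made up most of these sums. Mean levels of Trac were 0.168, 0.156 and 0.388 CPM, and those of Cd8a and Cd8b1 were at most 0.585. The 7 B cell markers summed to 77.1 to 83.7, 155.1 to 199.6 and 116.0 to 129.7 CPM, most of it Ighm and Cd79b. Pax5 was at 0 in fresh MLN and Ms4a1 at 0 in culture. Both were below the filter, with at most 9 counts (Pax5) and 1 count (Ms4a1) in any group. The 10 granulocyte and mast cell markers summed to 118.8 to 123.0, 25.8 to 30.1 and 597.3 to 879.8 CPM. Nearly all of the cultured sum was Mcpt8, a basophil protease, with a mean of 727 CPM. Of the 6 tested, Mcpt8, Ly6g and Mpo were higher in culture than in fresh MLN, and Cpa3, S100a8 and S100a9 were lower. Cpa3 and Mpo were higher in thymus than in fresh MLN. Ly6g and Mcpt4 were at 0 in thymus and fresh MLN, and Ms4a2 was at 0 in culture. Mcpt4 and Ms4a2 were below the filter, with at most 2 and 5 counts in any group. Their part in the ligand results was not tested.

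The genes with patterns most like each member were taken as the 2 with the smallest root mean square difference of centred log2 CPM over the 6 libraries. The log2 CPM was computed with a prior count of 2, a small count added to every gene before the log. For Ccl5 these were Cxcr3 (0.156) and Gm43302 (0.162), and for Xcl1 they were Samd3 (0.178) and Irf7 (0.196), an interferon regulatory factor. The pattern of Cxcl10 was nearest to those of Ifit1bl1 (0.319) and Ifi44 (0.359), both of interferon-induced families. Ccl22 had no near pattern, its nearest being Apol7c at 0.633 and Gm5970 at 0.739. Ccl3 was nearest to Adora2b (0.27), an adenosine receptor, and Egfr (0.374), and Ccl4 to Kcna4 (0.114) and Myo1d (0.334). Cxcl3 was nearest to Spink2 (0.0948) and Pigz (0.138), Cxcl2 to Msc (0.287) and Pilrb1 (0.288), Ccl17 to Gm20632 (0.203) and Gm13748 (0.209), and Ccl1 to Hspa1l (0.0671) and Lct (0.075). The libraries of a group share their group level, so these distances describe mainly 3 group means. Where a gene had few or no counts in a group, its log2 level there was set largely by the prior. In culture Xcl1 had 0 counts and Irf7 a mean of 12.81 CPM, and Cxcr3 had 0 counts and Ccl5 had 65. Spink2 was at 0 in fresh MLN, where Cxcl3 had a mean of 0.392 CPM. These 3 matches therefore depend on the prior and do not show equal fold differences. The same limit holds for others: Egfr and Msc were at 0 in thymus, and Apol7c, Gm5970 and Samd3 at 0 in culture. Kcna4 had means of 0.669, 2.16 and 30.7 CPM in thymus, fresh MLN and culture, where Ccl4 had 0.0247, 0.221 and 3.50.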

How the data were processed

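Per the submitters' processing notes, the authors counted reads with HTSeq 0.5.3p9 on builds mm9 and NCBIM37. The deposited values are raw counts per Ensembl gene. The sources used here name no aligner, annotation release or strand setting. Per the labels, a stranded mRNA kit was used. Symbols and transcript lengths came from GENCODE M21, which matched 32919 identifiers and left 5072 without a symbol. In R 4.3.3 with edgeR 4.0.16 (limma 3.58.1), filterByExpr kept 16231 of 23871 genes with a count, totals were scaled by TMM, and all 6 libraries were fitted with 1 mean per group. Differences were tested two-sided with the quasi-likelihood F test, adjusted by Benjamini-Hochberg across the tested genes, and called under 0.05. The procedure was tested on simulated data in which few genes changed, all above 1 CPM and in thymus only. These data have many more called genes and members below 1 CPM, which that simulation did not cover. SE is the log2 difference over the square root of F, and can be too small where 1 group has few counts. Where a group held 1 to 3 counts, an exact 95% counting ratio is given, and where it held 0, a bound at 3 counts over the group. Lengths are those of the longest protein-coding transcript. All members were named. From other lists, up to 3 called genes with the largest difference per comparison were eligible, beside the most abundant markers, the receptors and the other ligands. Cxcl9, Art3, markers at 0, Ncr1 and genes given to spell out a small count were named after their values were seen. Some listed genes are not reported here, and the lists' counts and sums leave them out. Members and lists were chosen with earlier results of these data known. The promoter motifs were chosen after the counts were seen, and the printed ISRE core is a shortened form adopted after the longer form had been searched; both shares are given. Alternatives were DESeq2 1.42.0, a replicate block, other scalings and filters, testing against a change of 2-fold, and leaving out each library.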

Additional observations from a re-analysis of the deposited data

How the results depend on the processing

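The 24 called member results include those of Ccl3, Ccl4, Ccl22 and Cxcl2, which passed the filter through the group in which they were high and had to differ. For these genes a kept call adds no support. Of the 24, 20 kept their direction and call under every alternative that still tested the gene (14 or 15 alternatives each). The exceptions were Ccl1 and Ccl4 for thymus against fresh MLN, and Ccl17 and Ccl22 for cultured MLN against thymus. Against a 2-fold change in place of 0, their edgeR adjusted p-values were 0.49, 0.15, 0.134 and 0.0976, and the genes called fell to 1298 for thymus against fresh MLN, 5676 for cultured against fresh MLN and 4455 for cultured MLN against thymus. A filter of 5 CPM in 2 libraries left 4 members to test, and 2, 4 and 4 of them were called. Signs turned in 4 uncalled thymus against fresh MLN differences: Cxcl3 to -0.18 without thymus replicate 2, Cxcl2 to 2.26 without fresh MLN replicate 1, and Ccl3 to 0.29 and Ccl17 to 0.046 without fresh MLN replicate 2. Over all left-out libraries Cxcl3 ran from -0.18 to 0.44, Cxcl2 from -4.33 to 2.26, Ccl3 from -1.27 to 0.29 and Ccl17 from -1.44 to 0.046. Scaling by library totals alone moved the median of all genes to -0.23 (cultured against fresh MLN) and -0.32 (cultured MLN against thymus), with 4254 genes higher and 7880 lower in the last, against 5654 and 6139, and it called Ccl1 lower in culture than in fresh MLN (-1.32, edgeR adjusted p = 0.0275). Replicate numbers are shared names: same-numbered deviations correlated at 0.11, 0.02 and 0.03. With a replicate block 8049, 12738 and 11944 genes were called, and 6, 8 and 10 members, with no member call changed. Counts under 10 in a group limit Ccl3, Ccl4, Ccl22, Cxcl2, Cxcl10 and Xcl1 at their low ends.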
